A study of Mus musculus with 2 samples.

Results

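Dendritic cells were examined by single-cell RNA sequencing of the mediastinal lymph nodes (MedLNs) of asthmatic mice, some of which had been given butyrate. No cell annotation was used, so the cells were chosen by a gate on the RNA counts. A cell counted as a dendritic cell when it had no transcript of the T cell genes Cd3e, Cd3d and Cd3g, at most 1 of the B cell genes Cd79a and Cd79b, fewer than 3 of the macrophage gene Lyz2 and fewer than 3 of C1qa, C1qb and C1qc together. It also had to carry at least 2 of 8 dendritic cell genes, namely Flt3, Zbtb46, Fscn1, Itgax, Xcr1, Clec9a, Siglech and Ccl22. The gate kept 59 of the 18100 cells that passed the quality filters, 20 in the library without butyrate and 39 in the library with butyrate. The levels of these genes therefore chose the cells, and they are given below as a description.

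Both groups were wild-type C57/B6J mice aged 5 to 13 weeks, sensitised to ovalbumin (OVA) with alum on days 0 and 7, challenged with intranasal OVA on days 14 to 16 and sampled on day 17. One group also received the short-chain fatty acid butyrate (C4). Each group is 1 library of cells pooled from 4 mice, ground through a strainer with no enrichment for dendritic cells, and no unchallenged mice were analysed here. Neither condition has a replicate, no test was made between them, and every interval below is a 95% interval that covers counting error only. Cells of 1 library share their source and are not replicates of the treatment.

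Reads were counted as unique molecular identifiers (UMIs), each standing for 1 captured transcript. The library without butyrate held 9681 deposited cells, of which 9495 passed the filters, and its 59176459 UMIs gave the median cell 5140. The library with butyrate held 8932 cells, of which 8605 passed, and its 58381292 UMIs gave the median cell 5651. The dendritic cells were deeper than the average cell, with medians of 9612 and 9914 UMIs, and the sums over them were 198142 UMIs without and 458606 with butyrate. The depth of single dendritic cells ran from 1576 to 20837 UMIs without butyrate and from 1531 to 33075 with butyrate. The libraries had 25 cell barcodes in common, and none of them belonged to a dendritic cell.

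Dendritic cells take up antigen, break it down and show its peptides on MHC class II to CD4+ T cells, or on MHC class I to CD8+ T cells. In a lymph node draining the airway, migratory dendritic cells arrive from the lung through the chemokine receptor CCR7 after they have matured, and conventional type 1 dendritic cells (cDC1) specialise in presenting antigen to CD8+ T cells. Conventional type 2 cells (cDC2) are known for priming T helper responses to allergens, and plasmacytoid dendritic cells for making type I interferon.

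Markers of other cells were looked at first in the gated cells. No UMI of the T cell genes Cd3e, Cd3d and Cd3g or of the B cell gene Ms4a1 was in any of the 59 cells. The same held for C1qa, C1qb, C1qc and Fcgr1 of macrophages and S100a8, S100a9, Csf3r, Ly6g and Cxcr2 of neutrophils. The gate itself required Cd3 at 0 and limited Lyz2, C1q and Cd79, so those genes are no check of it. Other listed genes were seen. Cd79b was in 20% of the cells without and 15.4% with butyrate, Cd79a in 15% and 12.8%, and the macrophage gene Cd68 in 40% and 46.2%. The summed level of 10 T cell markers was 40.4 CPM (UMIs per 1000000 UMIs summed over the cells) without and 56.7 with butyrate, and that of 10 B cell markers 45.4 and 45.8 CPM. The monocyte and macrophage list was the highest of these, with 8 of 13 genes detected and a sum of 570 CPM without and 905 with butyrate. Most of that sum was Ly6c2, which plasmacytoid cells also express, at 91 UMIs in 3 cells and 301 UMIs in 11 cells. Markers of natural killer (NK) cells and innate lymphoid cells summed to 65.6 and 100.3 CPM, led by Klrk1, with Ncr1, Klrb1c, Gzma and Prf1 at 0.

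Just outside the gate lay cells with cytotoxic genes and cells with dendritic cell genes. The cells that met every limit and carried exactly 1 of the 8 genes numbered 24 without and 20 with butyrate, and they held the cytotoxic genes Nkg7 at 753 and 1534 CPM and Gzma at 1272 and 4968 CPM. The cells with exactly 2 of the genes, 7 without and 12 with butyrate, held no UMI of either gene. Cd74, the invariant chain of MHC class II, was at 8581 and 3386 CPM in the cells with 1 gene and at 14770 and 13539 CPM in those with 2. The cells with 1 gene also held Tcf4, a plasmacytoid transcription factor, at 316 and 460 CPM against 0 and 388 CPM, and Irf8 at 512 and 1263 CPM against 118 and 1079 CPM. Some cells with dendritic cell genes were therefore outside the gate.

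The genes used by the gate were rare in T cells, which were used as the measure of background from free RNA. Flt3, the receptor for a growth factor of dendritic cells, was seen in 55% of the dendritic cells without and 61.5% with butyrate, against 0.111% and 0.163% of T cells, whose median depths were 5601 and 6552.5 UMIs. Fscn1, an actin-bundling protein of mature dendritic cells, was seen in 80% and 53.8% of dendritic cells and in 0.223% and 0.359% of T cells. With every cell thinned to 2000 UMIs, which left 18 and 37 dendritic cells, Flt3 was seen in 22.2% and 16.2% of them and in 0% and 0.0985% of T cells. Ccr7 itself does not separate the lineages in a lymph node, since 68.1% and 71.8% of T cells held it. Outside the gate genes, the transcripts that stood furthest above all other cells included Zmynd15, at 717 CPM in dendritic cells against 1.41 in the rest without butyrate and 543 against 1.65 with butyrate. Batf3, a transcription factor of cDC1, the retinaldehyde dehydrogenase Aldh1a2 and the chemokine Cxcl16 were also among the 15 genes that led this ranking, which took in 1059 genes at 100 CPM or more in both libraries.

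Dendritic cells made up a small share of each pool of nodes, and the share was larger in the pool with butyrate. They were 0.211% of cells without butyrate (20 of 9495, exact binomial interval 0.129 to 0.325) and 0.453% with butyrate (39 of 8605, 0.322 to 0.619). The ratio was 2.15-fold (1.22 to 3.89), or 1.11 on the log2 scale (0.29 to 1.96). The gate was chosen with these libraries in view, so this ratio describes the 2 pools of nodes. By flow cytometry over several mice per group, the paper reports dendritic cells as unaffected by butyrate. That measure did not use this gate on RNA counts. Among cells that were neither T nor B cells by the same counts, the shares were 1.10% and 2.24%. Without the cells of highest doublet score, 1 without and 6 with butyrate, the log2 ratio was 0.93 (0.07 to 1.82).

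**Figure D1:**
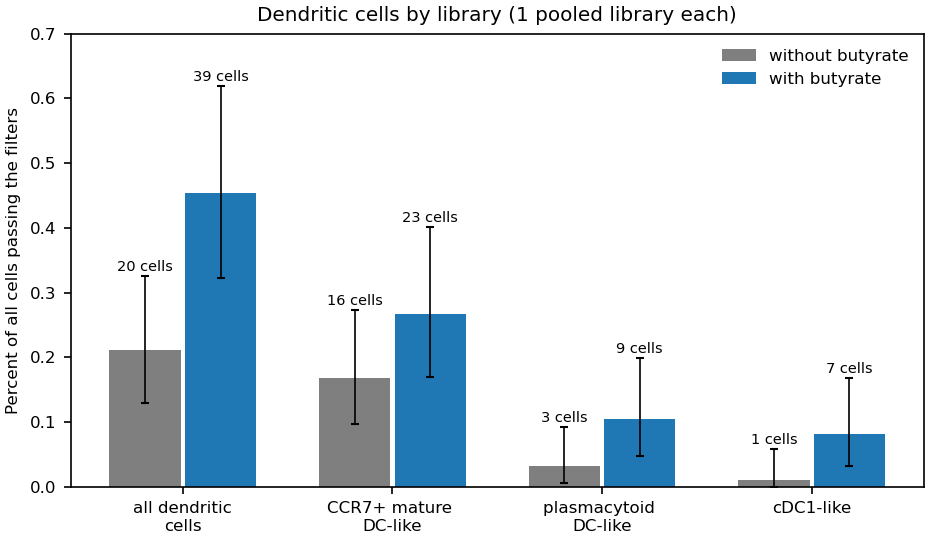
Dendritic cells and their 3 groups as a percent of all cells that passed the filters (y axis), for the library without and the library with butyrate; bars give the share of 1 library and whiskers the 95% exact binomial interval. Dendritic cells were 0.211% and 0.453% of all cells, and the intervals of each of the 3 groups overlap between the libraries.

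Clustering of the 59 cells gave 3 groups, which were named from marker lists. The largest, 39 cells, was CCR7+ mature DC-like. It was led by Fscn1 (1585 CPM inside against 3.28 in the other dendritic cells), Ccr7 (1494 against 6.56), the chemokine Ccl5 (7067 against 42.7), which attracts T cells, and the fatty acid carrier Fabp5 (7081 against 49.2). The second, 12 cells, was plasmacytoid DC-like and was led by Ly6d (2746 against 9.55), Ly6c2 (2888 against 15.3) and the surface lectin Siglech (1444 against 3.82). The third, 8 cells, was cDC1-like and was led by the lysosomal amidase Naaa (1159 against 22.7) and the chemokine receptor Xcr1 (425 against 6.19), with Wdfy4, a factor needed for cross-presentation, and Tlr3, a sensor of double-stranded RNA, among its 10 leading genes. These genes formed the clusters and are a description of them.

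**Figure D2:**
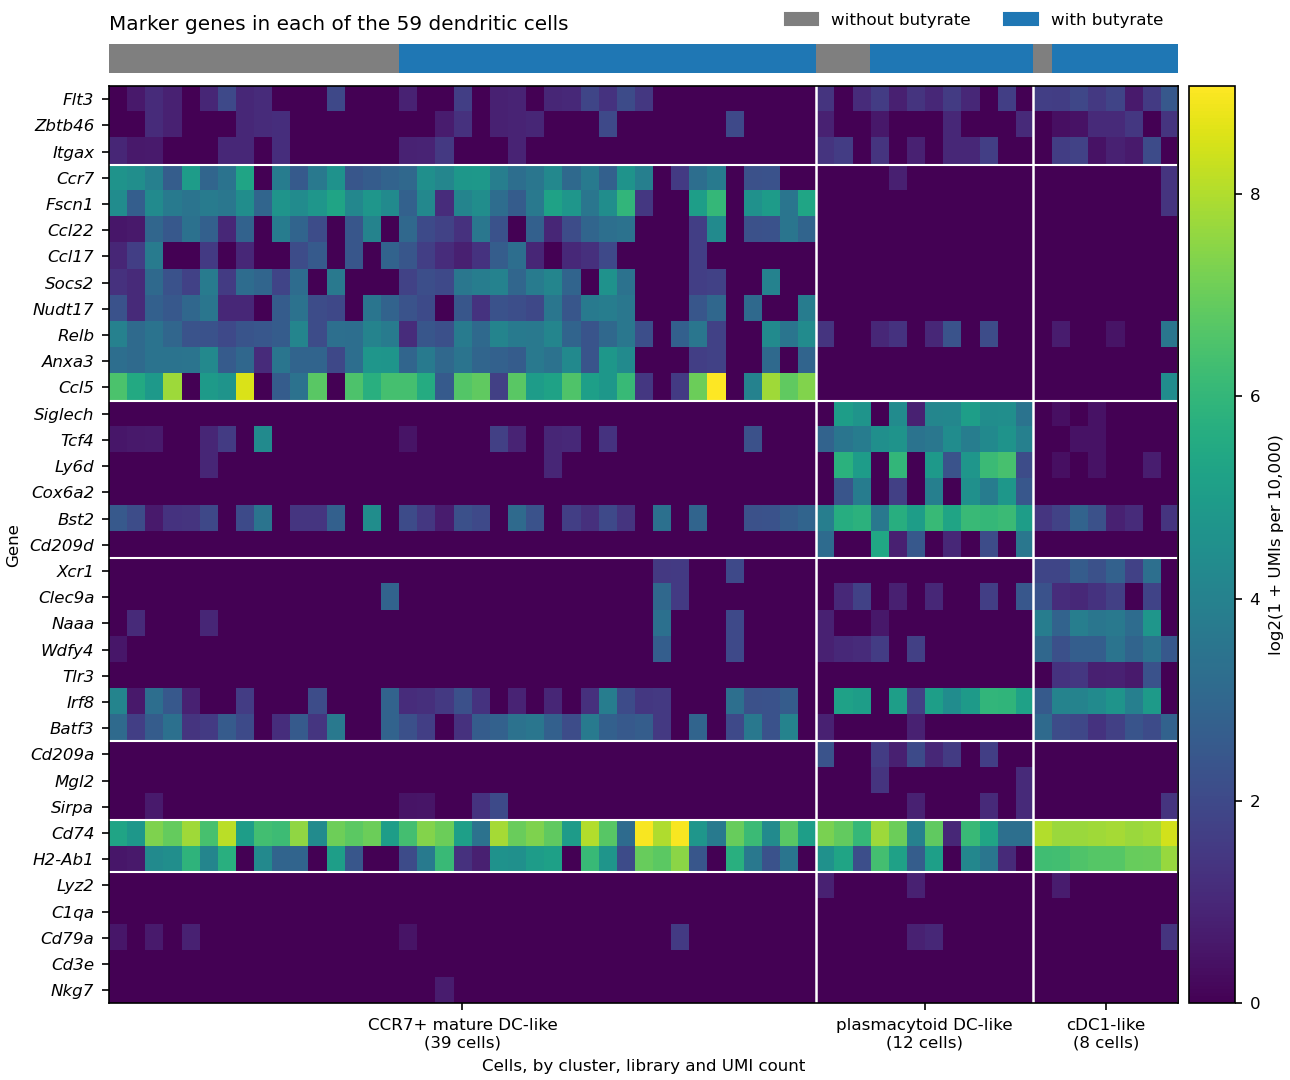
Level of marker genes (rows, log2 of 1 plus UMIs per 10000) in each of the 59 dendritic cells (columns, ordered by cluster, library and depth; the bar at the top gives the library). Fscn1, Ccr7 and Ccl5 mark most of the 39 CCR7+ mature DC-like cells, Tcf4 is seen in 12, Siglech in 10 and Ly6d in 9 of the 12 plasmacytoid DC-like cells, and Naaa and Xcr1 in 7 of the 8 cDC1-like cells, while Cd3e and C1qa are at 0 throughout.

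Several genes that the gate did not use are described next by group, although the same cells and genes formed and named the clusters, so their levels are no independent support for the names. Tcf4, the transcription factor that sets plasmacytoid identity, was found in 12 of 12 plasmacytoid DC-like cells at 1602 CPM, in 2 of 8 cDC1-like cells and in 13 of 39 mature cells at 90.9 CPM. Irf8, which both plasmacytoid cells and cDC1 need, was at 2497 CPM in the plasmacytoid DC-like and 1700 CPM in the cDC1-like cells, against 281 CPM in the mature cells. Batf3 did not separate the groups, since it was found in 8 of 8 cDC1-like cells at 344 CPM and in 32 of 39 mature cells at 443 CPM. Relb, an NF-kappaB subunit of dendritic cell maturation, was in 36 of 39 mature cells at 764 CPM. The nucleotide transferase Dntt, which inserts bases during receptor rearrangement in lymphocytes, had 29 UMIs in 7 of the 12 plasmacytoid DC-like cells and none in the other 47 dendritic cells. No cluster was cDC2-like, and the cDC2 markers that were detected lay mostly in the plasmacytoid DC-like cluster. The lectin Clec10a was among the 10 leading genes of that cluster, with 71 of its 72 UMIs in 10 of the 12 cells, and Cd209a had 19 UMIs in 7 of these cells only. The 10 cDC2 genes summed to 1226 CPM in the plasmacytoid DC-like, 239 CPM in the cDC1-like and 179 CPM in the mature cells. In all dendritic cells they summed to 227 CPM without and 484 CPM with butyrate (45 and 222 UMIs, 1.09, 0.62 to 1.59), and in mature cells to 134 and 212 CPM (0.67, -0.13 to 1.51). Clec10a had 6 and 66 UMIs, of which 1 cell held 53.0% with butyrate, and Mgl2 had 4 UMIs in all.

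The makeup of the dendritic cells differed between the pools, although few cells carried the difference. Without butyrate 16 of 20 cells (80%, 56.3 to 94.3) were CCR7+ mature DC-like, and with butyrate 23 of 39 (58.97%, 42.1 to 74.4). The plasmacytoid DC-like cells were 3 of 20 (15%, 3.21 to 37.9) and 9 of 39 (23.1%, 11.1 to 39.3), and the cDC1-like cells 1 of 20 (5%, 0.127 to 24.9) and 7 of 39 (17.9%, 7.54 to 33.5). The log2 ratio of these shares was -0.44 (-1.42 to 0.58) for mature, 0.62 (-1.38 to 3.14) for plasmacytoid DC-like and 1.84 (-1.12 to 7.34) for cDC1-like cells, and each interval covers 0. Set against all cells of the node, plasmacytoid DC-like cells were 0.0316% without and 0.105% with butyrate and cDC1-like cells 0.0105% and 0.0813%. Mature cells were 0.169% and 0.267% of all cells, so that the same group was a smaller share of dendritic cells and a larger share of the node. The genes that formed the clusters also differed between the libraries. Counting cells by single marker genes gave 15 and 20 mature, 2 and 7 plasmacytoid and 2 and 9 cDC1 cells. It also gave 1 and 2 cDC2 cells, and 0 and 1 cells of no class.

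Because the cDC1-like cells were deep, with a median of 22212.5 UMIs against 7686 in mature cells, they weighed more in the summed RNA than in the cell count. Mature cells gave 75.5% of the dendritic cell UMIs without butyrate and 44.1% with butyrate. The plasmacytoid DC-like cells gave 15.4% and 22.4%, and the cDC1-like cells 9.13% and 33.5%. Of the 8 cDC1-like cells, 3 were among the cells of highest doublet score, as were 3 mature and 1 plasmacytoid DC-like cell. The pooled values below can move with this makeup, and the value in mature cells, the only group with 10 or more cells in each library, is given beside them where the mature cells held enough UMIs. The mature cells were themselves not alike. At a finer clustering they fell into a set of 28 cells, 14 in each library, and a set of 11, 2 without and 9 with butyrate. The set of 11 was shallower, with a median of 4579 UMIs against 10095.5. Over both libraries it held less Socs2 (81.7 against 705 CPM) and more H2-Ab1 (4018 against 2025 CPM) and Cd74 (14195 against 11545 CPM). Its higher H2-Ab1 lay in the cells with butyrate, since without butyrate 241 of the 242 H2-Ab1 UMIs of mature cells were in the set of 28. Without butyrate Cd74 was at 12149 CPM in the 28 cells and 10580 CPM in all mature cells, and with butyrate at 11104 and 13059 CPM. Values in the 28 cells are therefore given as well for 5 of the gene lists, a choice made after seeing the data. A change in the number of cells of a group and a change in RNA per cell cannot be told apart in the pooled sums.

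Across all dendritic cells 818 genes had at least 100 UMIs over both sums. With butyrate, 30 of them (3.67%) were at least 2-fold higher and 17 (2.08%) at least 2-fold lower, and the median log2 ratio of all 818 was -0.00. Within the mature cells alone, 411 genes had that depth, 5 (1.22%) were at least 2-fold higher and 0 (0%) were at least 2-fold lower. Leaving aside size, the counting interval of 98 of the 411 ratios did not cover 0. When each cluster was given the same weight in both libraries, 7 genes were higher and 7 lower.

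**Figure D3:**
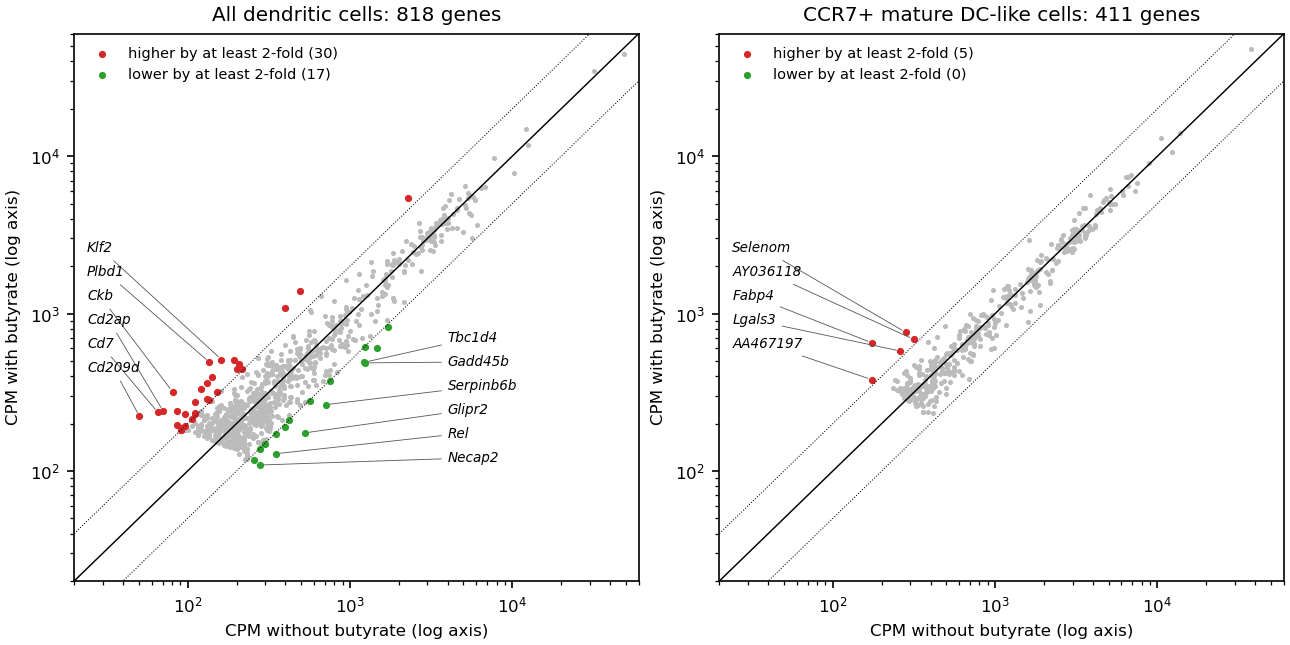
Summed level of each gene without butyrate (x axis, CPM, log scale) and with butyrate (y axis, CPM, log scale), for all dendritic cells (818 genes) and for CCR7+ mature DC-like cells (411 genes); coloured points lie past the dotted 2-fold lines. The pooled cells have 30 genes above and 17 below the lines, and the mature cells 5 above and 0 below.

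Most genes at the top of the pooled comparison had their highest level in the 2 groups that gave more of the RNA with butyrate. Of the 30 higher genes, 14 had their highest level in the plasmacytoid DC-like and 15 in the cDC1-like cells, and 1, Fabp4, in the mature cells. The same split was not counted over all 818 genes, so these counts have no background and are a description only. Plac8, at 3708 CPM in the plasmacytoid DC-like and 71.0 CPM in the mature cells, was at 490 CPM without and 1393 CPM with butyrate, a log2 ratio of 1.51. Cd7, another gene of that group, was at 65.6 and 235 CPM (1.84), the adaptor Cd2ap at 70.7 and 240 CPM (1.76) and Tspan13, a tetraspanin, at 121 and 331 CPM (1.45, 0.82 to 2.14). Without butyrate 1 cell held 92.3% of the UMIs of Cd7, 50% of Cd2ap, 29.2% of Tspan13 and 28.9% of Plac8, and with butyrate 1 cell held 35.5% of those of Cd2ap. Among cDC1-like genes, Plbd1 was at 136 and 491 CPM (1.85), the creatine kinase Ckb at 80.8 and 318 CPM (1.98), Naaa at 141 and 397 CPM (1.49) and Wdfy4 at 85.8 and 240 CPM (1.48). Without butyrate 1 cell held 77.8% of the UMIs of Plbd1, 75% of Ckb, 85.7% of Naaa and 76.5% of Wdfy4. Over the alternatives Plbd1 ran from 0.52 to 3.71 and Ckb from 0.45 to 3.79. With equal cluster weights Naaa and Wdfy4 turned to -0.18 and -0.09. Cd209d led the list at 50.5 and 222 CPM (2.14), but 1 cell held 79.4% of its UMIs with butyrate. With that cell left out the ratio was -0.08, and all 10 of its UMIs without butyrate were in 1 cell. Klf2, which keeps naive lymphocytes quiescent, was at 162 and 510 CPM (1.66), with 34.4% of its UMIs without butyrate in 1 cell, and its ratio was 0.86 with equal weights. Plac8, Cd7, Cd2ap, Plbd1, Ckb and Klf2 had too few UMIs in mature cells to be compared there, at 71.0, 0, 34.1, 62.5, 25.6 and 122 CPM over both libraries.

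Of the 17 lower genes, 15 had their highest level in the mature cells, and Cd44 and Ccnd1 had it in the plasmacytoid DC-like cells. This split was likewise not counted over all genes compared. Rel, an NF-kappaB subunit, was at 348 CPM without and 129 CPM with butyrate (log2 ratio -1.44, -1.96 to -0.91). In the mature cells alone it was at 414 and 148 CPM, with 62 UMIs in 12 of 16 cells and 30 UMIs in 14 of 23 cells, so the lower level was also present within the group (-1.48, -2.16 to -0.83), although its 92 UMIs were under the minimum of 100. Cd83, a surface marker of mature dendritic cells, was at 257 and 118 CPM (-1.13), and at 314 and 227 CPM in mature cells (-0.47, -1.09 to 0.15). The single cells of the libraries overlapped for both genes, with a median of 1 UMI per mature cell in each library. In the finer set of 28 mature cells Rel had 61 and 29 UMIs (-1.53, -2.22 to -0.87). Gadd45b, a stress-induced gene downstream of NF-kappaB, was at 1247 and 486 CPM (-1.36), Tbc1d4, a regulator of vesicle traffic, at 1226 and 491 CPM (-1.32), and the adhesion receptor Cd44 at 399 and 190 CPM (-1.07). In the mature cells these were closer together, at -0.66, -0.85 and -0.84. Glipr2 was lowest of all in the pooled sums, at 525 and 174 CPM (-1.59), and at 688 and 385 CPM in mature cells (-0.84). The remaining genes of the 12 lowest were Serpinb6b, Necap2, Txndc17, S100a4, Etv3 and Ccnd1, between -1.43 and -1.02. In mature cells Serpinb6b was at -0.66, Txndc17 at -0.73, S100a4 at -0.43 and Etv3 at -0.42, while Necap2 and Ccnd1 had fewer than 100 UMIs there. Without butyrate 1 cell held 31.4% of the UMIs of Cd83, 30.9% of Necap2, 30.2% of Txndc17, 29.8% of Glipr2 (28.8% with butyrate), 26.1% of Ccnd1, 25.3% of Cd44 and 25.1% of Gadd45b.

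Within mature cells the 5 genes that were at least 2-fold higher included 2 with a known role in myeloid cells. Fabp4, a fatty acid carrier of macrophages and dendritic cells, was at 174 CPM without and 652 CPM with butyrate (1.91, 1.29 to 2.57). It came from few cells, 5 in each library, and 1 cell held 65.4% and 58.3% of its UMIs. Lgals3, the lectin galectin-3, was at 261 and 578 CPM (1.15). Selenom was at 281 and 761 CPM (1.44), AA467197 at 174 and 380 CPM (1.13) and AY036118 at 314 and 687 CPM (1.13). Without and with butyrate, 1 cell held 28.6% and 39.6% of the UMIs of Selenom, 38.5% and 31.2% of AA467197 and 25.6% and 29.1% of Lgals3. The next in order were H2-Ab1 (0.86), with 30.2% of its UMIs without butyrate in 1 cell, and the ribosomal gene Rpl4 (0.78). The mature DC gene Apol7c followed at 0.76, with 44.8% of its UMIs in 1 cell without and 63.2% in 1 cell with butyrate, and Socs2, an inhibitor of cytokine signalling that marks mature dendritic cells, was at 441 and 711 CPM (0.69).

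MHC class II genes were higher with butyrate in the pooled cells and in the mature cells as a whole, but not in the larger finer set of mature cells, where their sum was close to even. Over the 11 genes of the list the summed level in all dendritic cells was 25351 CPM without and 34688 CPM with butyrate, a log2 ratio of 0.45 (0.41 to 0.50). Of the 8 genes deep enough to compare, 2 were at least 2-fold higher and 0 lower, beside 3.67% and 2.08% of all 818 genes. The median of the 8 was 0.38, with 7 above 0, beside -0.00 over all genes. The 2 genes were H2-Ab1, a chain of the peptide-presenting I-A molecule, at 2266 and 5386 CPM (1.25, 1.10 to 1.40), and H2-DMb1, a chain of the peptide exchanger H2-DM, at 131 and 362 CPM (1.46, 0.86 to 2.12). The invariant chain Cd74 was at 12148 and 14982 CPM (0.30), H2-Aa at 5148 and 6424 CPM (0.32) and H2-Eb1 at 4204 and 5722 CPM (0.44). The master regulator Ciita was at 172 and 161 CPM (-0.09).

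The level of MHC class II depended on the group of cells. Cd74 was at 26028 and 22021 CPM in cDC1-like cells, at 10580 and 13059 CPM in mature cells and at 11603 and 8232 CPM in plasmacytoid DC-like cells, without and with butyrate. H2-Ab1 was at 7626 and 10435 CPM in cDC1-like cells, at 1617 and 2929 CPM in mature cells and at 2268 and 2673 CPM in plasmacytoid DC-like cells. The cDC1-like values without butyrate rest on 1 cell. In single mature cells the median of H2-Ab1 was 6.51 per 10000 UMIs without butyrate, with a range from 0 to 57.9, and 11.9 with butyrate, with a range from 0 to 181, so the cells of the libraries overlapped over nearly the whole range of the library without butyrate.

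Within mature cells the MHC class II sum was 22537 CPM without and 29260 CPM with butyrate (0.38, 0.32 to 0.44), and all 5 genes deep enough lay above 0. Of the mature cells, 4 had a cDC1 gene, Xcr1 or Clec9a, or no UMI of Ccr7, Fscn1 and Ccl22, and 3 of these 4 were in the library with butyrate. Those 3 cells gave 6.87% of its mature UMIs and had Cd74 at 31416 and H2-Ab1 at 12150 CPM. Without the 4 cells the sum was 22695 and 25701 CPM (0.18, 0.12 to 0.24) and H2-Ab1 was at 0.46 (0.23 to 0.69), beside 0.17 for the same sum in B cells and -0.00 in T cells. In the finer set of 28 mature cells, 14 in each library, the sum was 25846 CPM without and 24635 CPM with butyrate (-0.069, -0.14 to -0.0021), H2-Ab1 was at 1964 and 2070 CPM (0.076, -0.17 to 0.32) and Cd74 at 12149 and 11104 CPM (-0.13, -0.23 to -0.031). In the 28 cells lay 3172 of the 3372 MHC class II UMIs of mature cells without and 4142 of the 5924 with butyrate. For H2-Ab1 these were 241 of 242 and 348 of 593 UMIs. The rest lay in the set of 11 cells, 2 without and 9 with butyrate. The part of this uneven split in the values of mature cells was not tested.

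**Figure D4:**
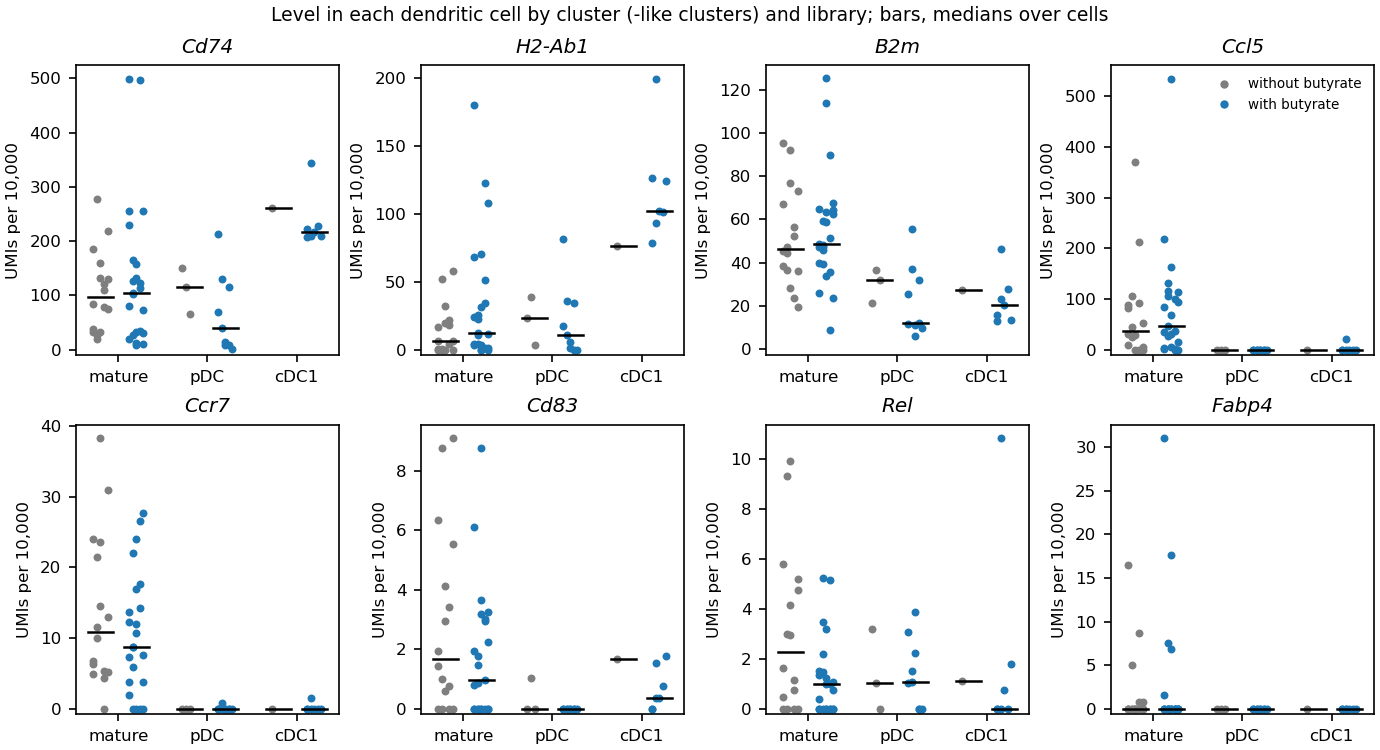
Level of 8 genes in single dendritic cells (y axis, UMIs per 10000 of the cell), by cluster and library; each point is 1 cell and each bar a median over cells. The medians of Cd74 and H2-Ab1 are highest in the 8 cDC1-like cells, although 2 mature cells with butyrate reach a higher Cd74 than any of them, Ccl5 and Ccr7 are high in the mature cells of both libraries, and Fabp4 is seen in 5 mature cells of each library.

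The promoters of the MHC class II genes are shown because these genes share a known control module, the S-X-Y boxes bound by the factors that recruit CIITA. RefSeq promoters (GRCm38.p6, from 250 bases before to 50 bases after the gene start) were matched for 8 of the 11 genes of the list. The letters GATTGG, the core of the Y box, were searched on both strands and were found in 7 of 9 promoters of the list (77.8%) and in 5292 of all 32851 promoters (16.1%). A match is a description of the letters only, and 3' counts do not read a promoter. The stretches below are 80 bases long and written 5′ to 3′ along the gene, with GATTGG in capitals, for H2-Aa (chr17:34287847-34287926, minus strand), H2-Eb1 (chr17:34305753-34305832, plus strand) and H2-DMb1 (chr17:34153075-34153154, plus strand).
H2-Aa: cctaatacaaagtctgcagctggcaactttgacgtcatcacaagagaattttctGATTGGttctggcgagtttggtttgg
H2-Eb1: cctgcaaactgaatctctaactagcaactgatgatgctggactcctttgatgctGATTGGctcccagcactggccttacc
H2-DMb1: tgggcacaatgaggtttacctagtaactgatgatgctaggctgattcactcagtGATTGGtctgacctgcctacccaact
The 3 genes differed in their pooled ratio, at 0.32, 0.44 and 1.46. In mature cells H2-DMb1 had 13 and 12 UMIs, too few to compare, and H2-Aa and H2-Eb1 were at 0.28 and 0.55.

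MHC class I genes went the other way in the pooled sums and not in the mature cells. Their summed level was 12925 CPM without and 11646 CPM with butyrate in all dendritic cells (-0.15, -0.22 to -0.08), and all 8 genes deep enough lay below 0, none by 2-fold. In mature cells the sum was 14216 and 16295 CPM (0.20, 0.12 to 0.28), and it was 0.23 (0.15 to 0.31) without the 4 cells named above. The shared light chain B2m was at 4712 and 5255 CPM in mature cells (0.16), the heavy chains H2-D1 at 3054 and 3951 CPM (0.37) and H2-K1 at 2607 and 3176 CPM (0.29). In the finer set of 28 mature cells the sum was at 12393 and 16855 CPM (0.44, 0.35 to 0.53), H2-D1 at 2330 and 4187 CPM (0.85) and H2-K1 at 2224 and 3426 CPM (0.62). In single mature cells the median of H2-D1 was 21.8 and 32.7 per 10000 UMIs and that of H2-K1 19.3 and 26.6, and the ranges overlapped. B2m was lower in the other groups, at 2317 CPM in plasmacytoid DC-like cells, and these groups were a larger part of the sum with butyrate.

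Antigen uptake and processing differed in the pooled sums and was even within mature cells. The sum of the list was 10376 CPM without and 12285 CPM with butyrate in all dendritic cells (0.24, 0.17 to 0.32) and 11362 and 11365 CPM in mature cells (0.00, -0.09 to 0.09). Cst3, an inhibitor of cathepsins that is abundant in dendritic cells, made up most of it, at 8929 and 8989 CPM in mature cells (0.01). Lamp1, a lysosomal membrane protein, was at 712 and 434 CPM in all dendritic cells (-0.71) and at 902 and 874 CPM in mature cells (-0.05).

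Ligands that costimulate or restrain T cells had a lower sum with butyrate, at low counts and with members in both directions. The list of 12 genes summed to 969 CPM without and 706 CPM with butyrate (-0.46, -0.72 to -0.19), and of 2 genes deep enough 1, Cd83, was at least 2-fold lower, beside 2.08% of all 818 genes. The other, Cd48, which binds a receptor of NK and T cells, was at 116 and 192 CPM (0.73, 0.05 to 1.46), and the checkpoint ligand Vsir had 2 and 36 UMIs. In mature cells, where no gene of the list reached 100 UMIs, the sum was 1063 and 785 CPM (-0.44, -0.76 to -0.11), and without the 4 cells named above it was -0.41 (-0.74 to -0.07) and in the finer set of 28 cells -0.46 (-0.81 to -0.12). The checkpoint ligand PD-L1, gene Cd274, had 34 UMIs in 11 of 16 mature cells without butyrate and 24 UMIs in 13 of 23 with butyrate, or 227 and 119 CPM (-0.94, -1.76 to -0.14). PD-L2, gene Pdcd1lg2, had 22 and 20 UMIs in mature cells (-0.57, -1.52 to 0.37). Cd86 had 12 UMIs in 9 of 16 and 10 UMIs in 7 of 23 mature cells, whereas Cd40, the receptor for T cell help, had 9 UMIs in 4 and 24 UMIs in 14 mature cells. The same sum was -0.01 in T cells and 0.23 in B cells.

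Chemokines and receptors of migration had lower sums with butyrate in the pooled cells (-0.86 and -0.35), with receptors in both directions. All 3 comparable chemokines lay below 0, none by 2-fold. Of the 3 comparable receptors, 2 lay below 0 and 1, Ccr9, above it. Only Ccr7 was at least 2-fold lower, beside 2.08% of all 818 genes. In mature cells the sums were closer to even, at -0.11 and -0.28. Ccr7 was at 1236 CPM without and 617 CPM with butyrate in all dendritic cells (-1.003), and at 1637 and 1388 CPM in mature cells (-0.24, -0.49 to 0.01), where 15 of 16 and 19 of 23 cells held it. Ccl5 was at 5673 and 3003 CPM in all dendritic cells (-0.92) and at 7512 and 6737 CPM in mature cells (-0.16, -0.27 to -0.04), and 1 cell without butyrate held 31.9% of its UMIs. Ccl22, which attracts T helper 2 and regulatory T cells through CCR4, was at 328 and 201 CPM in all dendritic cells (-0.71) and at 434 and 454 CPM in mature cells (0.06, -0.41 to 0.55). Its neighbour Ccl17 was confined to mature cells, at 254 and 217 CPM with 38 and 44 UMIs. The ratios of Ccr7, Ccl5 and Ccl22 were thus closer to even once mature cells were compared with mature cells, although Ccl5 stayed below 0. In the finer set of 28 cells Ccl5 was at 7130 and 6120 CPM (-0.22, -0.35 to -0.089) and Ccr7 at 1532 and 1558 CPM (0.02, -0.25 to 0.30). The chemokine list as a whole summed to 9277 and 8575 CPM in mature cells, and in the finer set of 28 cells to 8963 and 8029 CPM (-0.16, -0.27 to -0.043), beside -0.031 (-0.13 to 0.073) without the 4 cells named above. The 12 comparable genes of the CCR7+ mature DC list had a median of -0.73 in all dendritic cells and -0.03 in mature cells. That list named the cluster and holds Ccr7 and the gate genes Fscn1 and Ccl22, so these medians are no separate support.

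Gpr183, the oxysterol receptor that places dendritic cells in the node, had 46 UMIs in 8 of 16 mature cells without and 33 UMIs in 6 of 23 with butyrate, or 307 and 163 CPM (-0.92, -1.61 to -0.24). Ccr9, a homing receptor of plasmacytoid cells, was at 95.9 CPM without and 181 CPM with butyrate in all dendritic cells. It had 93 UMIs in 9 of 12 plasmacytoid DC-like cells and none in mature cells. Ccr2, the receptor that brings monocytes and precursors out of the marrow, had 0 UMIs without butyrate and 46 UMIs in 7 cells with butyrate, of which 1 cell held 54.3%.

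**Figure D5:**
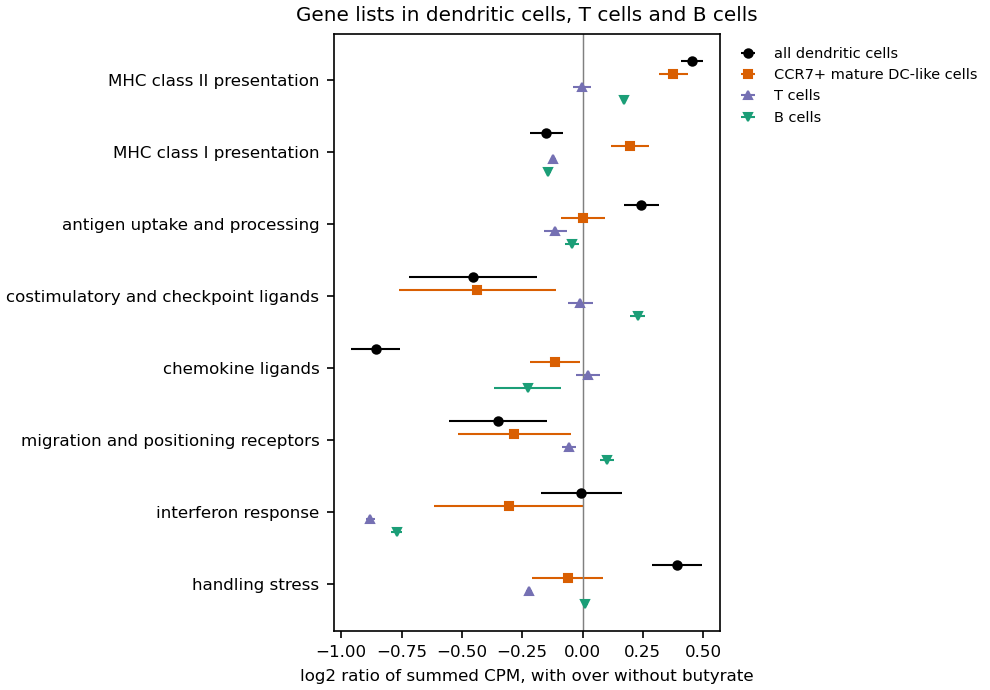
Log2 ratio (with over without butyrate) of the summed CPM of 8 gene lists in all dendritic cells, CCR7+ mature DC-like cells, T cells and B cells, with 95% counting intervals as bars. MHC class II is above 0 in all dendritic cells (0.45) and in mature cells (0.38), MHC class I lies at -0.15 and 0.20, and the chemokine list moves from -0.86 in all dendritic cells to -0.11 in mature cells.

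Cytokines and genes of type 2 priming were near the limit of detection. Over 14 cytokine genes the dendritic cells held 45 UMIs without and 104 with butyrate (227 CPM in each library), and none of the genes reached 100 UMIs. In mature cells the sum was 221 and 188 CPM (-0.23, -0.94 to 0.49). Il12b, the shared subunit of interleukin-12 and interleukin-23, had 9 UMIs in 2 cells without and 3 UMIs in 2 cells with butyrate, and Il6 0 and 2 UMIs. The 13 genes of type 2 priming summed to 505 and 519 CPM (0.04, -0.30 to 0.39), and to 521 and 489 CPM in mature cells (-0.092, -0.54 to 0.35). Among them Crlf2, a chain of the receptor for the epithelial cytokine TSLP, had 4 and 39 UMIs, Klf4 6 and 50 UMIs, with 40 UMIs over both libraries in plasmacytoid DC-like cells, and the OX40 ligand Tnfsf4 3 and 0 UMIs.

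Genes of tolerance were uneven. Aldh1a2, which makes retinoic acid, was seen in mature cells only, with 23 UMIs in 7 of 16 cells without and 58 UMIs in 13 of 23 cells with butyrate, or 154 and 286 CPM (0.90, 0.18 to 1.66), and 1 cell held 37.9% of its UMIs with butyrate. Il4i1, an amino acid oxidase that limits T cells, was at 735 and 672 CPM in mature cells (-0.13). The aryl hydrocarbon receptor Ahr was at 85.8 and 196 CPM in all dendritic cells (1.19) and had 8 and 9 UMIs in mature cells, so its difference lay in the other groups. The list summed to -0.23 in all dendritic cells and 0.12 (-0.09 to 0.34) in mature cells.

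Among transcription factors, 1 of 8 comparable genes was at least 2-fold higher and 1 lower, beside 3.67% and 2.08% of all 818 genes. Bcl11a, which plasmacytoid cells need, was at 111 and 275 CPM in all dendritic cells (1.31) and had 1 and 5 UMIs in mature cells. Rel was the lower gene. Irf8 in all dendritic cells was at 661 and 1291 CPM (0.97), and within mature cells it had 61 UMIs in 8 of 16 cells without and 38 UMIs in 16 of 23 cells with butyrate, with 54.1% of the former in 1 cell. The levels of Relb in mature cells, 782 and 751 CPM (-0.06, -0.42 to 0.30), and of Batf3, 421 and 459 CPM (0.13, -0.35 to 0.61), were within counting error. The list summed to -0.34 (-0.50 to -0.18) in mature cells, to which Rel, Irf8, Tcf4 and Id2 contributed.

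Sensors of pathogens were sparse. Their sum in mature cells was 334 and 301 CPM (-0.15, -0.71 to 0.42). Tlr3 was seen in 6 of the 7 cDC1-like cells with butyrate, at 21 UMIs, and in no other dendritic cell. Tlr7, a sensor of RNA, had 7 UMIs, all in plasmacytoid DC-like cells, and Tlr9, a sensor of DNA, 3 UMIs in all. Unc93b1, which carries these receptors to the endosome, was the 1 gene of 18 deep enough, at 172 and 229 CPM (0.42, -0.15 to 1.02), and it was seen in all 3 groups, in 17 of 39 mature, 12 of 12 plasmacytoid DC-like and 8 of 8 cDC1-like cells.

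Interferon response genes in the pooled cells had sums of 2094 and 2087 CPM (-0.01, -0.17 to 0.16), and the sums were 1130 and 914 CPM in mature cells (-0.31, -0.61 to 0.00). The list was at -0.42 (-0.74 to -0.099) in mature cells without the 4 cells named above and at -0.43 (-0.79 to -0.079) in the finer set of 28 cells. The same list was -0.88 in T cells and -0.77 in B cells, and the difference between cell types was not tested. Bst2, an interferon-induced gene that plasmacytoid cells carry at rest, was at 797 and 1204 CPM (0.59), at 4280 CPM in plasmacytoid DC-like and 276 CPM in mature cells. Without Bst2, a choice made after seeing the data, the other 17 genes summed to 1297 CPM without and 883 CPM with butyrate in all dendritic cells (-0.55, -0.78 to -0.32) and to 835 and 652 CPM in mature cells (-0.36, -0.72 to 0.01). Ifi27l2a was at 424 and 227 CPM in all dendritic cells (-0.90) and at 214 and 93.8 CPM in mature cells (-1.19, -2.09 to -0.33).

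Genes that respond to tissue handling had a higher sum with butyrate in the pooled cells and a sum close to even in mature cells. Their sum was 5097 CPM without and 6685 CPM with butyrate in all dendritic cells (0.39, 0.29 to 0.50) and 4444 and 4258 CPM in mature cells (-0.06, -0.21 to 0.09), beside -0.22 in T cells and 0.01 in B cells. The early-response gene Fos was at 399 and 1088 CPM in all dendritic cells (1.45), with 38.0% of its UMIs without butyrate in 1 cell, and the cells that carried it were the plasmacytoid DC-like cells, at 1841 and 1756 CPM, and the cDC1-like cells, at 276 CPM in 1 cell and 2018 CPM in 7. Mature cells held it at 120 and 44.5 CPM. Egr1 had 1 UMI without and 82 UMIs in 7 cells with butyrate. By group the list was at 9040 CPM without and 8710 CPM with butyrate in plasmacytoid DC-like cells. In cDC1-like cells it was at 3868 CPM in 1 cell and 8534 CPM in 7. The part of handling or of makeup in the pooled differences was not tested.

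Of the genes through which butyrate is known to act, the receptors were hardly detected and the deacetylases were detected at low counts. Ffar2, which encodes the receptor GPR43, had 4 UMIs, all in 2 cDC1-like cells with butyrate, and Ffar3, Hcar2 and the transporter Slc5a8 had none. With no UMI of Ffar2 among the 198142 without butyrate, a count of 0 allows up to 3 UMIs. Among class I histone deacetylases, which butyrate inhibits, Hdac1 had 14 UMIs in 8 of 20 cells without and 31 UMIs in 20 of 39 cells with butyrate, or 70.7 and 67.6 CPM (-0.06, -1.02 to 0.96), beside 67.3 and 66.9 CPM in T cells. Hdac2 had 5 and 11 UMIs and Hdac3 4 and 9 UMIs. The list of 11 genes summed to 131 and 142 CPM (0.11, -0.57 to 0.83) in all dendritic cells and to 114 and 133 CPM in mature cells (0.23, -0.70 to 1.196), and no gene of it was deep enough to compare alone.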

How the data were processed

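The authors deposited filtered gene by cell matrices of raw UMI counts, 1 per library, from 10x Genomics 3′ v3 libraries. The submitters' processing notes name Cell Ranger 6.0.1 and mm10. Counts were used as deposited, without ambient RNA correction. Cells were kept at up to 10% mitochondrial UMIs and at least 200 detected genes, and doublets were kept in the main values. The gate, the gene lists and the cluster markers were chosen with earlier results of these data known. The 59 cells were clustered with scanpy 1.11.5 (1500 variable genes, 15 principal components, 15 neighbours, Leiden resolution 0.6). Counts were summed per library and divided by the summed total to give CPM (counts per 1000000). A ratio is CPM with over CPM without butyrate, and a gene was compared when its 2 sums together held 100 UMIs or more. A gene was counted as higher or lower at a ratio of 2-fold, a description with no test. Shares have exact binomial (Clopper-Pearson) intervals and ratios exact conditional binomial intervals at the 95% level. The ratio step was run on simulated sums drawn with counting error only. They held no spread between cells and no difference in makeup, so they do not test the ratios against either. Named genes were the 12 highest and 12 lowest in the pooled sums at 100 CPM or more in a library, genes of the lists and, in part, the 15 genes that led over other cells and the 10 that led each cluster. Genes past 2-fold in mature cells, and the few named beside them, were chosen after their values were seen. Doublet scores came from Scrublet, with 0.8% of cells marked per 1000 cells. Groups of fewer than 25 cells per library were to have no comparison of their own, which left none, so mature cells were compared at a limit of 10. The route and dose of butyrate for these libraries are not given in the sources used here.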

Additional observations from a re-analysis of the deposited data

Results flagged for a closer look

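The summed MHC class I level of the CCR7+ mature DC-like cells had a log2 ratio of 0.20 (0.12 to 0.28) with over without butyrate, whereas it was -0.12 in T cells and -0.14 in B cells of the same libraries. What drew attention was that the mature cells moved one way and both lymphocyte groups the other. Each value is 1 pair of libraries, and the difference between the cell types was not tested. Psmb9 (-0.25) and Tap1 (-0.20) lay below 0 in the mature cells, and the other 5 comparable genes of the list lay above 0.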

How the results depend on the processing

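No paired analysis was possible because each condition is 1 library, so fewer than 2 replicate numbers are shared. Leaving out a replicate was impossible for the same reason. The larger share of dendritic cells with butyrate kept its direction under all 7 alternatives, with log2 ratios from 0.927 to 1.196. The share of mature cells among dendritic cells (-0.44) had the opposite sign as a share of all cells (0.67), by its denominator. At a clustering resolution of 0.3 no cDC1-like cluster formed, and without the cells of highest Scrublet score (3 mature, 1 plasmacytoid DC-like and 3 cDC1-like cells) a new clustering of the rest gave 0 and 7 cDC1-like cells, so neither gave a ratio. In the 28 mature cells of the larger finer cluster the MHC class II sum changed sign, to -0.069 from 0.38.

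The counts of genes past 2-fold, 30 higher and 17 lower, depended on depth and makeup. They were 86 and 62 at a minimum of 50 UMIs, 10 and 8 at 200 UMIs, and 1107 and 1380 of 8527 with no minimum. They were 70 and 39 after thinning each cell to 2000 UMIs, 7 and 7 with equal cluster weights, 5 and 0 in mature cells, and 5 and 0 in mature cells without those carrying cDC1 genes or lacking Ccr7, Fscn1 and Ccl22. The lower genes were 11 with 10 CPM added and 11 without ribosomal, mitochondrial and immunoglobulin genes, where the higher genes were 74.4% of the calls against 63.8%. The counts were 19 higher and 18 lower without the top cell of each gene. Of the main calls, 17 higher and 5 lower genes were still called there, 15 and 6 after thinning, and 4 and 3 with equal cluster weights. With equal cluster weights Naaa was at -0.18 and Wdfy4 at -0.092, and without its top cell Cd209d was at -0.078. The comparisons in mature cells, the narrower set and the finer cluster were chosen after seeing the data. Of 285 values of 24 single genes, 228 stayed within the counting interval, 54 moved outside it and 3 changed sign. Depth limits all of this: the mature cells rest on 16 and 23 cells and the cDC1-like group on 1 and 7.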

Other observations

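At a clustering resolution of 1.0 the mature cells split into 28 cells (14 without, 14 with butyrate) and 11 cells (2 and 9). The larger set held Socs2 at 705 CPM and Fabp4 at 543 CPM and no UMI of Cxcl9, a chemokine induced by interferon gamma. The smaller set held Cxcl9 at 359 CPM, Socs2 at 81.7 CPM and no UMI of Fabp4, and was shallower, at 4579 UMIs in the median cell. The part of depth in the split was not tested.

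The plasmacytoid DC-like cells split into 7 and 5 cells. The 7 cells held Siglech at 2384 CPM, Ly6d at 5172 CPM and Irf8 at 4002 CPM, and Dntt was seen in 7 of 7. Immunoglobulin light chain Iglc3 was also seen in this group, with 81 UMIs in 8 of the 12 plasmacytoid DC-like cells, while the B cell gene Ms4a1 was at 0. The other 5 cells held Siglech at 424 CPM and Tcf4 at 1522 CPM, together with Klf4 at 596 CPM, Ccr2 at 502 CPM, the lectin Cd209d at 1695 CPM and the cDC2 lectin Clec10a at 722 CPM. The sets hold 2 and 1 cells without butyrate and 5 and 4 with butyrate, too few to compare.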
